A study of Oryctolagus cuniculus with 6 samples.

Results

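The enzymes of glycolysis and of pyruvate use were followed in rabbit blastocysts that developed after cryopreservation. They were the probes whose description in the array files names hexokinase, glucose phosphate isomerase, phosphofructokinase, aldolase, triosephosphate isomerase, glyceraldehyde-3-phosphate, phosphoglycerate kinase or mutase, enolase, pyruvate or lactate dehydrogenase. This text search found 69 of the 43603 probes, which stand for 40 genes, and each gene was read from its brightest probe. Of these genes 34 were measured well enough to be tested, and the other 6 were PKLR, PDK4, PDHA2, PDP2 and the genes described as PFKFB3-like and PCK1-like, which were above background on at most 2 of 12 channel measurements. The search words also bring in enzymes outside the pathway, such as DERA, ENOPH1, ENOSF1, HPD and MPST, and they miss GPI and TPI1, which carry other descriptions on the array and are given beside the members.

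Total RNA of whole New Zealand White Rabbit blastocysts was compared at 6 days of age on 6 arrays with 2 dyes each. On 3 arrays the treated extract came from embryos that had been vitrified in dimethyl sulphoxide and ethylene glycol. On the other 3 it came from embryos that had been slowly frozen in dimethyl sulphoxide. Both kinds had been warmed, placed in recipient females and recovered as viable embryos, whereas the control on every array was an extract of untreated embryos of that age grown in vivo. Cryopreservation and transfer therefore cannot be told apart in either comparison. How many embryos made up an extract is not given in the sources used here. By their labels, vitrified and frozen arrays of the same replicate number used the same control, so the comparisons with control share their control samples. The dyes were swapped on replicate 2 of each treatment. Each value below is a log2 ratio of treated over control on 1 array, or the fitted value over 3 arrays with its standard error (SE). A gene is called when its adjusted p is under 0.05 (limma's moderated test, Benjamini-Hochberg over all 30761 tested probes).

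Glycolysis splits glucose into pyruvate in the cytosol and yields ATP without oxygen. Lactate dehydrogenase reduces pyruvate to lactate, while the pyruvate dehydrogenase complex feeds it into the citrate cycle in mitochondria. Mammalian embryos rely on pyruvate and lactate during cleavage and take up more glucose as they form a blastocyst.

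Spots well above background made up 44.7% to 58.0% in the green channel of an array and 64.2% to 74.5% in the red one. No member was saturated on any array. Vitrified replicate 1 had the widest spread, with an SD of 0.398 over all tested probes, against 0.231 to 0.346 on the other arrays. The labelled tissue was checked on markers: GATA3 and KRT8 of the trophectoderm and POU5F1 of the epiblast were above background on 12 of 12 channel measurements, with 5 of 10 listed trophectoderm genes and 3 of 8 listed epiblast genes tested. Because whole embryos were used, fewer cells of a type and less RNA per cell cannot be told apart.

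The results turn on a few probes, all 60 bases long, whose sequences are shown because the value of each gene rests on 1 such stretch of transcript. Positions are those of the array files, whose genome build is not given in the sources used here. The probes match mRNA and so lie in exons, and a span longer than the probe crosses an intron. The first is the probe of GAPDH (chr8:32584296-32584468), the dehydrogenase of glyceraldehyde-3-phosphate. The next are those of PDHX (chr1:174301950-174302009), a structural component of the pyruvate dehydrogenase complex, ALDOC (chr19:19583138-19583337), an aldolase, and PKM (chr17:317750-317809), the pyruvate kinase of most tissues.
GAPDH: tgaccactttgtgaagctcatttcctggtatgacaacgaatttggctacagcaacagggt
PDHX: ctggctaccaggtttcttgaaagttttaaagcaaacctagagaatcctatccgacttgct
ALDOC: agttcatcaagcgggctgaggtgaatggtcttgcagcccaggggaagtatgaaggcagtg
PKM: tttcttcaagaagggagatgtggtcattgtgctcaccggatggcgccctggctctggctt

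HKDC1 (chr18:17493263-17493500) and HK3 (chr3:57366225-57366284) are relatives that phosphorylate glucose or carry the hexokinase domain. Their probes are shown together because they cover related sequence, and the capitals mark the longest run they share, 13 bases. Between the isoform probes of phosphofructokinase, aldolase, glyceraldehyde-3-phosphate dehydrogenase, phosphoglycerate kinase, enolase and lactate dehydrogenase the longest shared run was 7 bases. Probes of other steps were not compared.
HKDC1: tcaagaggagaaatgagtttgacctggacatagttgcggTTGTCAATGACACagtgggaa
HK3: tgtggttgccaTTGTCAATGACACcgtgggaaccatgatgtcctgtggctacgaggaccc

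LDHA (chr14:46854618-46854673) and LDHB (chr8:18492479-18492538) encode the subunits of lactate dehydrogenase. LDHA has 5 probes, and the capitals mark the 38 bases that all of them share, so they are not separate evidence. Their fitted values ran from -0.48 to -0.43 in vitrified embryos.
LDHA: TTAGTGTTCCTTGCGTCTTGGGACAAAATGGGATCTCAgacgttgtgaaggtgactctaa
LDHB: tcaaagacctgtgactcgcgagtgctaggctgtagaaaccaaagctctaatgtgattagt

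No enzyme of the group was called in any comparison. In vitrified embryos 0 of 34 members were called, where 0.0195% of all tested probes were. In frozen embryos 0 of 34 were called against 0.185% of all probes, and between the methods 0 of 34 against 0.0%. The smallest adjusted p among the members was 0.185 in vitrified embryos, 0.122 in frozen embryos and 0.514 between them (limma). At an unadjusted p under 0.05 there were 4 members in vitrified embryos, 11.8% against 17.4% of all probes. There were also 4 in frozen embryos, 11.8% against 13.2%, and 2 between the methods, 5.88% against 7.54%. These shares lie below the background, so the counts are not a result about the members. Above 0 on all 3 vitrified arrays were 3 members, 8.82% against 20.4% of all probes, and below 0 were 6, 17.6% against 16.9%. On all 3 frozen arrays 4 were above 0, 11.8% against 15.7%, and 10 were below 0, 29.4% against 14.7%. Those 10 were HKDC1, PFKP, ALDOC, PGK2, ENO2, PKM, LDHA and LDHB together with HPD and MPST from outside the pathway. No fitted value reached 2-fold against control, and the median SE was 0.136.

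The members as a whole centred near 0. The median over the 34 members was -0.05 in vitrified and -0.08 in frozen embryos, beside 0.01 for all tested probes in each. Among the 19 members that carry out glycolysis itself or make lactate, 13 lay below 0 in vitrified embryos, where 48.7% of all probes did, with a median of -0.13. In frozen embryos 16 of the 19 lay below 0, where 48.3% of all probes did, with a median of -0.21. Their medians on single arrays were -0.41, -0.07 and 0.06 for vitrified replicates 1, 2 and 3 and -0.19, -0.32 and -0.12 for frozen replicates 1, 2 and 3. Each frozen array thus lay below 0, while the vitrified arrays did not share a sign. On vitrified replicate 1, 16 of the 19 lay below 0 and 9 lay beyond 0.5 in size, or 47.4%, against 16.4% of all probes on that array. Without this array, a setting chosen after the values were seen, 11 of the 19 lay below 0 in vitrified embryos, with a median of -0.03. Without frozen replicate 2 the frozen median was -0.10, with 11 of 19 below 0.

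**Figure D1:**
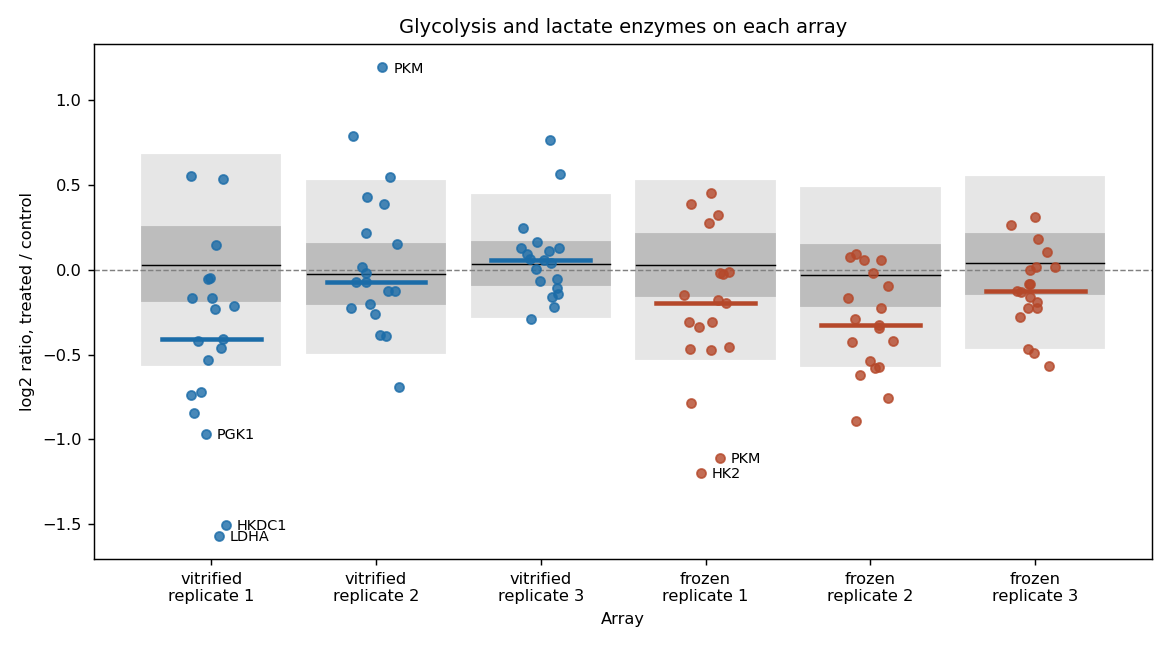
The log2 ratio of treated over control (vertical axis) for the 19 glycolysis and lactate enzymes on each of the 6 arrays (horizontal axis). Points are genes, coloured bars their medians, dark and light grey boxes the middle 50% and 90% of all tested probes, and the black line their median; the genes lie lowest on vitrified replicate 1, with a median of -0.41, and their median is below 0 on all 3 frozen arrays.

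The enzymes that bring glucose into the pathway were led by HKDC1. Its log2 ratios were -1.51, -0.69 and -0.11 on vitrified replicates 1, 2 and 3 and -0.79, -0.89 and -0.28 on the frozen ones. It was therefore below control on all 6 arrays, least on both arrays of replicate 3. The fitted value was -0.79 ± 0.25 in vitrified embryos (adjusted p = 0.212) and -0.67 ± 0.25 in frozen embryos (adjusted p = 0.318), which did not pass. The vitrified value was -0.40 without vitrified replicate 1, and in that fit the frozen value passed (-0.73, adjusted p = 0.0494). Its normalised log2 control signal was 9.14, 9.02 and 8.11 on the vitrified arrays and 8.70, 8.71 and 7.93 on the frozen arrays. The control of replicate 3 was thus the lowest on both of its arrays, while the treated signals of all arrays lay between 7.63 and 8.33. HK2, the hexokinase of insulin-sensitive tissues, was at 0.55, 0.22 and -0.16 on the vitrified and at -1.20, 0.08 and 0.02 on the frozen arrays. Its frozen value of -0.31 ± 0.25 rested on 1 array and was 0.05 without it. HK3 was at -0.20 in vitrified and -0.21 in frozen embryos. Of the same step ADPGK, which no search word found, was at -0.13 in vitrified and -0.08 in frozen embryos. None of these passed.

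The steps from fructose phosphates to triose phosphates followed no common direction in vitrified embryos. Of their 7 measured genes, GPI included, 4 lay below 0 there, where 48.7% of all probes did. In frozen embryos 6 of the 7 lay below 0, with a median of -0.23, where 48.3% of all probes did. ALDOC was at -0.85, -0.26 and -0.22 on the vitrified and at -0.19, -0.76 and -0.57 on the frozen arrays. All 6 ratios were below 0, with fitted values of -0.45 ± 0.16 (adjusted p = 0.236) and -0.51 ± 0.16 (adjusted p = 0.246). The vitrified value was -0.24 without vitrified replicate 1 and -0.72 without vitrified replicate 2, and the frozen value was -0.24 without frozen replicate 2. ALDOA, the aldolase of muscle and most tissues, was at -0.13 in vitrified and -0.31 in frozen embryos, and it was above 0 on frozen replicate 1. The phosphofructokinases, which commit sugar to glycolysis, were at -0.04 and -0.08 for PFKM. PFKP ran from -0.74 on vitrified replicate 1 to 0.43 and 0.77 on replicates 2 and 3, a range wider than its fitted value of 0.16 ± 0.26. On the frozen arrays it was at -0.18, -0.42 and -0.12. TPI1, which interconverts the triose phosphates, was at 0.53, 0.72 and 0.14 on the vitrified arrays, with a fitted 0.52 ± 0.11 (adjusted p = 0.151), and at 0.07 ± 0.11 in frozen embryos. GPI, the isomerase of glucose 6-phosphate, was at 0.15 and -0.02. None passed the test.

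GAPDH was the member whose vitrified arrays lay closest together. Often used as a reference gene, it was at 0.54, 0.55 and 0.57 on vitrified replicates 1, 2 and 3, the dye-swapped array included. On the frozen arrays it was at 0.39 on replicate 1, at -0.42 on replicate 2 and close to 0 on replicate 3. Each vitrified array thus lay above each frozen array, which held for 5.75% of all probes. The fitted value was 0.50 ± 0.13 in vitrified embryos (adjusted p = 0.185) and -0.06 ± 0.13 in frozen embryos (adjusted p = 0.895), and neither passed. Without vitrified replicate 2, where the dye term comes from the frozen arrays alone, the vitrified value was 0.25 (adjusted p = 0.850). The treated signal was 16.77 ± 0.06 (SD, n = 3) on the vitrified and 16.26 ± 0.20 on the frozen arrays, and the control signals were 16.22 ± 0.05 and 16.27 ± 0.22. By replicate number the treated signals differed by 0.34, 0.66 and 0.51, vitrified minus frozen. The control signals differed by 0.20, -0.30 and -0.06. Which channel the difference came from was not tested. GAPDHS, its sperm-specific relative, was at -0.16, 0.79 and 0.13 on the vitrified arrays, and its fitted 0.31 ± 0.15 became -0.05 without vitrified replicate 2.

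PGK1, which makes ATP from bisphosphoglycerate, was at -0.97, -0.39 and -0.14 on the vitrified and at -0.31, 0.09 and -0.22 on the frozen arrays. The vitrified value was -0.46 ± 0.16 (adjusted p = 0.224), or -0.27 without vitrified replicate 1, and the frozen -0.10 ± 0.16. Its control signals were 13.98 ± 0.09 on the vitrified and 13.69 ± 0.02 on the frozen arrays (SD, n = 3), so they differed although the labels name the same controls, while the treated signals were 13.48 ± 0.38 and 13.54 ± 0.21. A gene listed as PGK2 by its gene number, which the array files describe as phosphoglycerate kinase 1, was at -0.13 and -0.06. Which of the kinases that probe reads cannot be settled from these names. PGAM1, a phosphoglycerate mutase, was at -0.21 and -0.13, BPGM, which makes the 2,3-bisphosphoglycerate of red blood cells, at 0.25 and 0.05, and the enolases ENO2 and ENO3 at -0.05 and -0.14 in vitrified and at -0.27 and 0.05 in frozen embryos. None of these passed.

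PKM had the widest range between arrays among the enzymes of lower glycolysis. Its ratios were -0.72, 1.19 and 0.13 on vitrified replicates 1, 2 and 3 and -1.11, -0.58 and -0.16 on the frozen arrays. The fitted values were 0.33 ± 0.28 and -0.49 ± 0.28, and they turned to -0.27 without vitrified replicate 2 and to 0.11 without frozen replicate 2. With slide as a covariate the vitrified value was 0.16. The control signal of replicate 2 was 13.19 on its vitrified array and 14.24 on its frozen array. This was a gap of -1.05 in the same named extract and dye, though the arrays lay on different slides. Over all tested probes such gaps had a median size of 0.173, and 95% of them were at most 0.621. The gene described as pyruvate carboxylase, LOC100339131, had a like gap of -1.10 on these arrays.

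**Figure D2:**
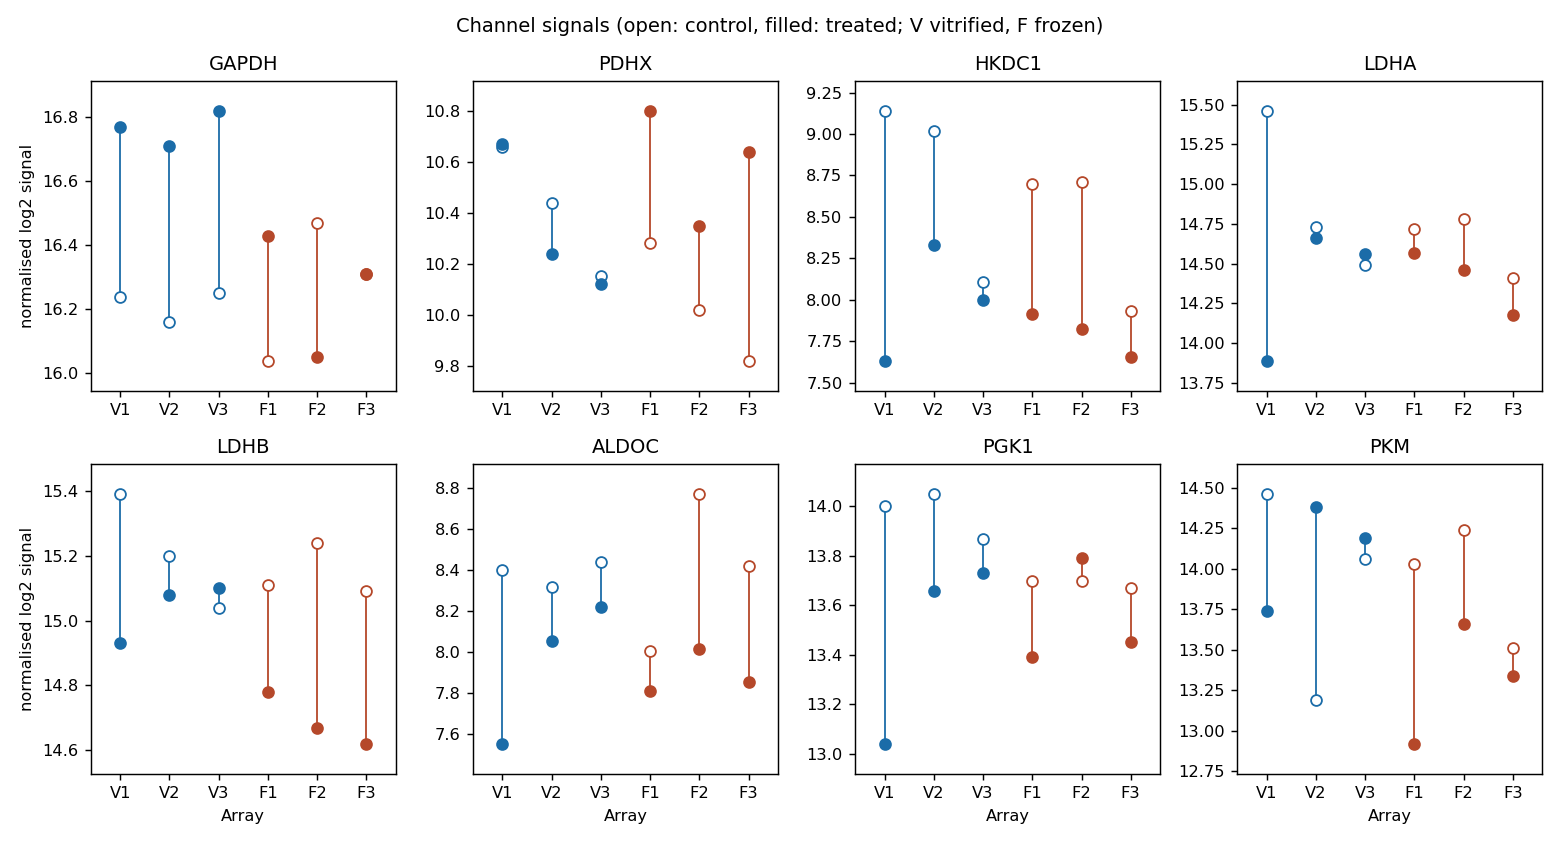
Normalised log2 signals (vertical axes, which differ between genes and do not start at 0) of the control (open) and treated (filled) channel of 8 genes on the 6 arrays, V for vitrified and F for frozen, by replicate number. For GAPDH the treated signals of the vitrified arrays lie above all others, for PDHX the control signals are lower on each frozen array than on the vitrified array of the same number, and for LDHA the channels stand apart on V1 alone.

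Neither lactate dehydrogenase gene passed the test. LDHB, the subunit that prevails in heart, was at -0.34, -0.57 and -0.46 on the frozen arrays and at -0.46, -0.12 and 0.06 on the vitrified ones. The frozen arrays lay close together, at -0.47 ± 0.12 (adjusted p = 0.183), and the vitrified value was -0.18 ± 0.12. Its treated signal was 14.69 ± 0.08 (SD, n = 3) on the frozen and 15.04 ± 0.09 on the vitrified arrays, against controls of 15.15 ± 0.08 and 15.21 ± 0.18. LDHA, the subunit that prevails in muscle, was at -1.57 on vitrified replicate 1 but at -0.07 and 0.07 on replicates 2 and 3. Its fitted vitrified value of -0.48 ± 0.28 thus rested on 1 array and was -0.00267 without it. On that array the treated signal was 13.89, the lowest of all, and the control 15.46, the highest, whereas the same named control read 14.72 on frozen replicate 1. The frozen ratios were -0.15, -0.32 and -0.22, with a fitted -0.19 ± 0.28 that was 0.16 without frozen replicate 2.

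**Figure D3:**
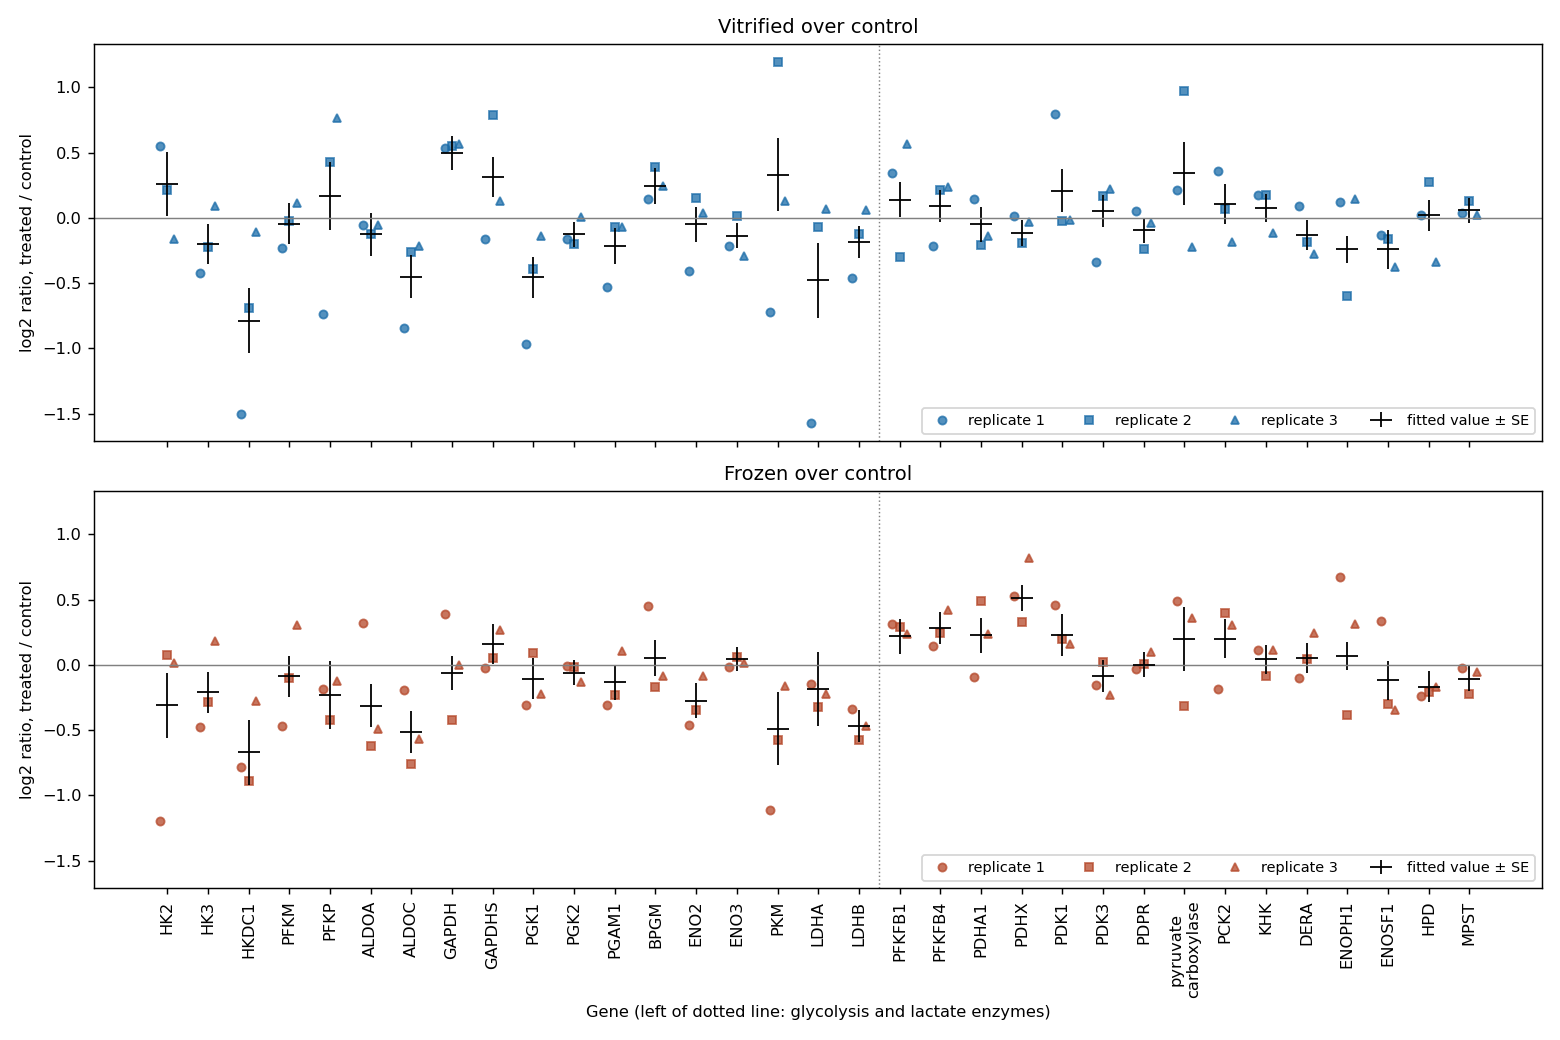
The log2 ratio of treated over control (vertical axis) of 33 of the 34 tested members (horizontal axis) on the 3 vitrified arrays (upper panel) and the 3 frozen arrays (lower panel), with the fitted value and its SE as a black cross. HKDC1 and ALDOC lie below 0 on all 6 arrays, GAPDH is nearly the same on all vitrified arrays, and LDHA is apart on 1 array.

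Fructose 2,6-bisphosphate, the strongest activator of phosphofructokinase, is made and removed by the PFKFB enzymes. PFKFB4 was at 0.14, 0.24 and 0.42 on the frozen arrays, all above 0, with a fitted 0.28 ± 0.12 (adjusted p = 0.384), and at 0.09 in vitrified embryos. PFKFB1 was not well above background in any of the 3 controls of the frozen arrays, so no fold is given. Of the enzymes outside the search, PFKFB2 was at -0.11 and 0.08, and TIGAR, a fructose bisphosphatase, at 0.20 and 0.01.

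At the entry of pyruvate into mitochondria, PDHX had the smallest p of all members. It was at 0.02, -0.19 and -0.03 on the vitrified and at 0.52, 0.33 and 0.82 on the frozen arrays. Each frozen array lay above each vitrified array, which held for 4.88% of all probes. The frozen value was 0.51 ± 0.10 (unadjusted p = 0.00114, adjusted p = 0.122) and the vitrified -0.11 ± 0.10, neither of which passed. In single channels, however, the treated signals overlapped, from 10.12 to 10.67 on the vitrified and from 10.35 to 10.80 on the frozen arrays. The control signals were higher on the vitrified than on the frozen arrays by 0.38, 0.42 and 0.34 for replicates 1, 2 and 3. The treated signals differed by -0.13, -0.10 and -0.52, vitrified minus frozen. By their labels the controls of a replicate number hold the same extract. Their gap was larger in size than that of the treated signals on replicates 1 and 2 and smaller on replicate 3. Over all tested probes such control gaps had a median size of 0.173, and 95% of them were at most 0.621. Which channel the PDHX difference came from was not tested.

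In frozen embryos the other parts of the complex lay closer to 0. PDHA1, the catalytic subunit, was at -0.05 in vitrified and 0.23 in frozen embryos, and PDHB and DLAT, found through their symbols, were at -0.18 and -0.09 in vitrified and at 0.11 and 0.14 in frozen embryos. Counted over this step, 6 of 8 genes lay below 0 in vitrified embryos, where 48.7% of all probes did. In frozen embryos 1 of 8 did, where 48.3% of all probes did. The medians were -0.09 and 0.12, and none was called. PDK1, a kinase that switches the complex off, was at 0.79 on vitrified replicate 1 and at -0.02 and -0.01 on replicates 2 and 3, while the frozen arrays read 0.46, 0.20 and 0.16. PDK3 was at 0.05 and -0.08, the phosphatase PDP1 at -0.24 and 0.03, and its regulatory partner PDPR at -0.10 and 0.00262.

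Of 7 listed genes of enzymes that run the pathway backwards, 5 were tested under their symbols. LOC100339131, described as pyruvate carboxylase, has no symbol here and is given below outside this count. Of the 5 genes 1 was called in frozen embryos, where 0.185% of all tested probes were. This was the only call among the pathway genes set beside the members. FBP2, the fructose bisphosphatase of muscle, was found by symbol. It rose by 1.00 ± 0.12 in frozen embryos (adjusted p = 0.0423), with 0.92, 1.11 and 0.71 on the 3 arrays. On the vitrified arrays it was at -0.11, 0.58 and -0.31. The call held under 6 of 16 other settings, where its adjusted p ran from 0.0201 to 0.994, and its value stayed between 0.91 and 1.21. It was lost without each array in turn except vitrified replicate 1. G6PC3, a glucose 6-phosphatase, was at 0.58 ± 0.12 in vitrified embryos (adjusted p = 0.148) and at 0.24 in frozen ones. FBP1 and G6PC1 were at -0.15 and -0.10 in vitrified and at -0.05 and 0.07 in frozen embryos. Among the members, LOC100339131 was at 0.21, 0.97 and -0.22 on the vitrified and at 0.49, -0.32 and 0.36 on the frozen arrays. Its fitted 0.34 ± 0.24 in vitrified embryos became -0.38 without replicate 2. PCK2, the mitochondrial carboxykinase that makes phosphoenolpyruvate, was at 0.11 and 0.20. Its other probe was at -0.13 in vitrified and 0.12 in frozen embryos, so the probes differed in sign in vitrified embryos.

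The members that the search words brought in from elsewhere lay near 0 for the most part. ENOPH1, of methionine salvage, was at -0.24 ± 0.11 in vitrified embryos (adjusted p = 0.290) and at 0.07 in frozen embryos, with 0.12, -0.60 and 0.15 on the vitrified and 0.67, -0.38 and 0.32 on the frozen arrays. It was thus above 0 on 2 of 3 vitrified arrays, and without the dye term the vitrified value was -0.11. ENOSF1 was at -0.24 and -0.12, DERA, of deoxyribose breakdown, at -0.13 and 0.05, and HPD, of tyrosine breakdown, at 0.02 and -0.17. KHK, the fructokinase, was at 0.07 and 0.04, and MPST, a sulfurtransferase, at 0.06 and -0.11. None was called.

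Vitrified and frozen embryos were then set against each other by the contrast of both fitted values. GAPDH differed by 0.56 ± 0.18 (adjusted p = 0.593) and PDHX by -0.63 ± 0.14 (adjusted p = 0.514), vitrified minus frozen. PKM had the largest difference, 0.82 ± 0.38 (adjusted p = 0.679), and HK2 was at 0.57 ± 0.34. On the other side PGK1 was at -0.35 ± 0.21 and ENOPH1 at -0.31 ± 0.14. None of these passed. The median over the members was 0.02, as over all probes. Among the glycolysis and lactate enzymes it was 0.06, with 6 of 19 below 0 against 46.7% of all probes. The dehydrogenase step had a median of -0.25, with 7 of 8 genes below 0 against 46.7% of all probes, and none called. These 8 genes pool subunits with kinases that switch the complex off. For PDHA1, as for PDHX, the control signals were higher on the vitrified arrays, by 0.14, 0.52 and 0.65 for replicates 1, 2 and 3. Its treated signals differed by 0.38, -0.17 and 0.27, vitrified minus frozen. For PDPR the control signals were lower on the vitrified arrays.

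Neighbouring pathways were read from other gene lists. Of 8 transporters of glucose and lactate 0 were called in any comparison. SLC16A7, a monocarboxylate carrier with high affinity for pyruvate, was at -0.30, -1.21 and -0.57 on the vitrified and at -0.43, -0.64 and -0.75 on the frozen arrays. It lay below 0 on all 6, with fitted values of -0.76 ± 0.14 (adjusted p = 0.144) and -0.68 ± 0.14 (adjusted p = 0.132). BSG, a chaperone of some monocarboxylate carriers, was at 0.37 and 0.03. In the pentose phosphate pathway 0 of 6 were called, and RPIA, ribose 5-phosphate isomerase, was at 0.29, 0.26 and 0.40 on the vitrified but at -0.07, -0.39 and -0.10 on the frozen arrays (difference 0.50 ± 0.13, adjusted p = 0.593). PRPS1, which makes the activated ribose of nucleotides, differed by -0.61 ± 0.16, and RPE was at -0.30 and -0.13.

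Of 16 citrate cycle genes 0 were called, with medians of -0.11 in vitrified and 0.02 in frozen embryos. SDHD, a membrane anchor of succinate dehydrogenase, was at -0.55 ± 0.14 in vitrified (adjusted p = 0.182) and at 0.07 in frozen embryos. The isocitrate dehydrogenase subunit IDH3A was at -0.19 and 0.37, and IDH3G and IDH1 were at 0.44 and 0.37 in vitrified embryos. Of 16 genes of glycogen and other hexoses 0 were called; the glycogen synthase GYS1 was at 0.47 in vitrified embryos, the phosphorylase PYGM at 0.41, GFPT2 at 0.39 in frozen embryos and PGM3 at 0.22. No regulator of glycolysis among 14 was called either. EGLN3, an oxygen-sensing prolyl hydroxylase, was at 0.31 ± 0.11 in vitrified and 0.53 ± 0.11 in frozen embryos (adjusted p = 0.235 and 0.132). HIF1A, the factor it marks for breakdown, was at -0.11 and -0.33, and ARNT and VHL lay between -0.15 and 0.23 in both.

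Genes outside glycolysis that respond to low oxygen lay mostly below 0. Of 12 measured, 10 were below 0 in vitrified embryos, with a median of -0.16, where 48.7% of all probes were. In frozen embryos 9 were below 0, with a median of -0.17, where 48.3% of all probes were. None was called. BNIP3, a mitophagy receptor, was at -1.31, -0.48 and -0.06 on the vitrified and at -0.72, -0.63 and -0.40 on the frozen arrays. As for HKDC1, the ratios of replicate 3 were the nearest to 0. P4HA2, a collagen prolyl hydroxylase, was at -0.34 and -0.61, ERO1A, an oxidase of the endoplasmic reticulum, at -0.41 and -0.34, and DDIT4, an inhibitor of TOR signalling, at -0.38 and -0.45. ANKRD37 was at 0.05 and -0.21 and LOX at 0.13 and -0.03.

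Several lists of cell type markers lay away from 0 on the same arrays. The 6 endoderm and yolk sac genes had medians of -0.71, 0.22 and 0.40 on vitrified replicates 1, 2 and 3 and of -1.32, -0.95 and -0.99 on the frozen ones, with 4 of 6 below 0 on the first and 5, 6 and 5 of 6 on the frozen arrays. APOA2, an apolipoprotein, fell by 1.00 in frozen embryos (adjusted p = 0.0423). That call held under 7 of 16 other settings, where its value ran from -1.23 to -0.87 and its adjusted p from 0.0148 to 1.00, and it was lost without each array in turn except vitrified replicate 1. Vitrified replicate 1, where the glycolytic enzymes lay lowest, was the vitrified array with the lowest endoderm markers. On the frozen arrays the endoderm medians were all lower than on vitrified replicate 1. The medians of the glycolysis and lactate enzymes on these arrays, -0.19, -0.32 and -0.12, were less low than the -0.41 of vitrified replicate 1. The 3 epiblast genes had medians from -0.21 to 0.44 on the vitrified and from -0.85 to -0.21 on the frozen arrays, with POU5F1 at -0.82 in the frozen fit. Trophectoderm genes had medians from 0.07 to 0.83 on the vitrified and from 0.28 to 0.51 on the frozen arrays. Blood markers had medians from 0.91 to 1.94 and from 0.31 to 1.51, led by HBB2 at 3.61 and 1.92, and the 2 uterine genes had medians from 0.73 to 2.16 and from -0.01 to 1.40. Of the 5 muscle genes MYH7 was at -0.31 and -0.69, TNNC1 at 0.20 and -1.21 and DES at 0.21 and 0.02. Of the neuron list no gene was tested. The part of cell type markers in the values of the enzymes was not tested.

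**Figure D4:**
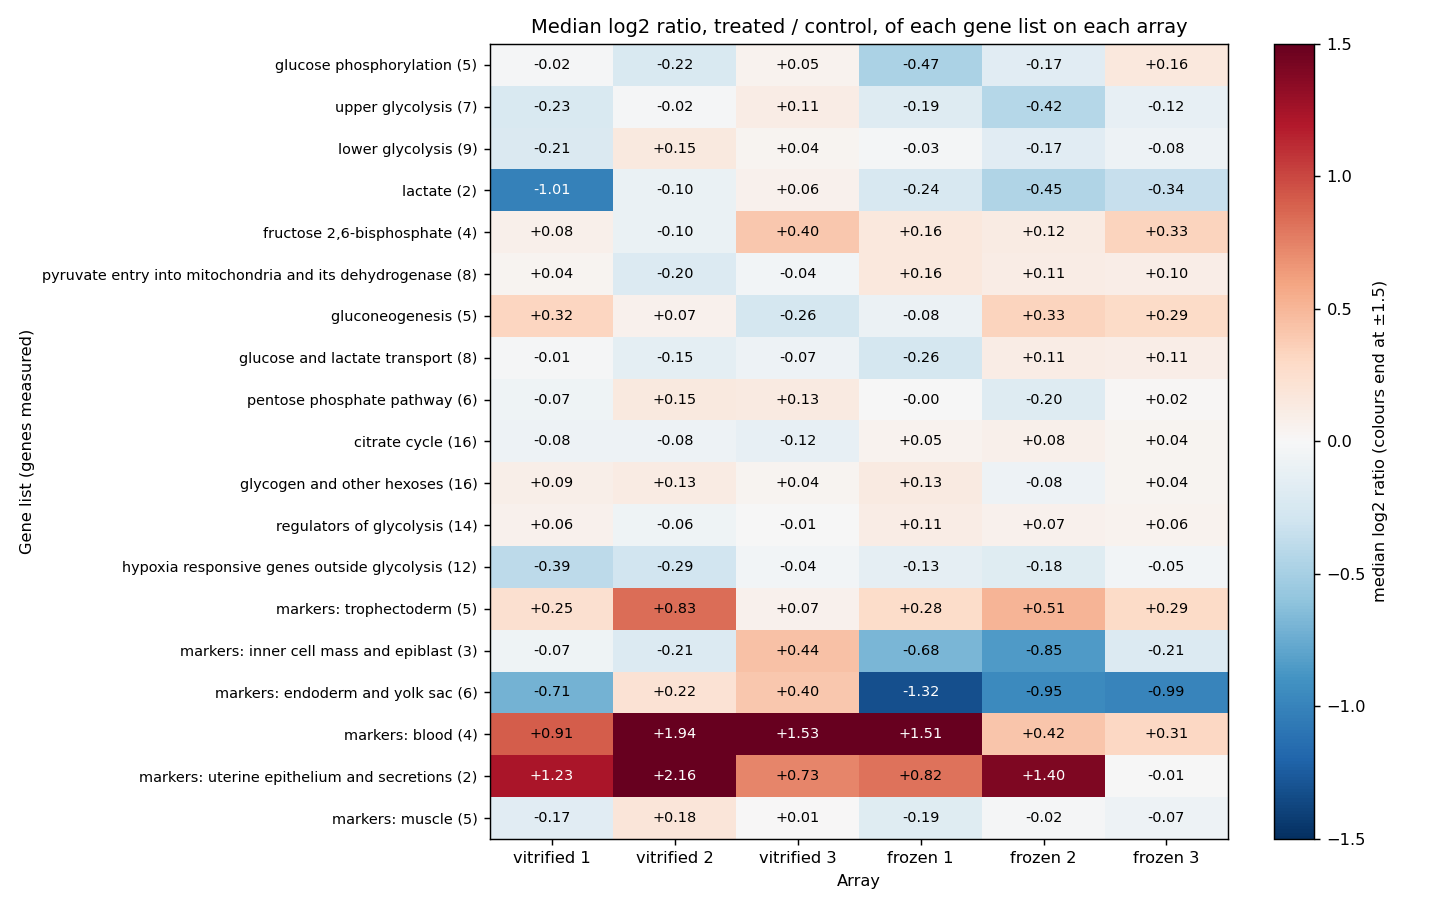
Median log2 ratio of treated over control for each gene list (rows, with the number of genes measured) on each array (columns), printed in the cells and coloured from blue, below 0, to red, above 0. The lactate genes reach -1.01 on vitrified replicate 1, the hypoxia responsive genes are at or below -0.04 on every array, the blood markers are above 0 on every array, and the endoderm markers are at or below -0.95 on the 3 frozen arrays.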

How the data were processed

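RNA was measured on 6 Agilent arrays with 2 dyes, 3 arrays per treatment. The deposited intensities are, per the file headers, mean spot signals with median local backgrounds in each channel, not normalised, and the submitters' processing notes name Agilent Feature Extraction 10.10.1.1. The deposited log10 ratio, which the scanner software had dye-normalised per the file headers, served as an alternative. Here, intensities were corrected by normexp (offset 50) and normalised by loess within arrays in limma 3.58.1 under R 4.3.3, with control spots at weight 0. Flagged spots (7 to 20 an array) were left out, spots of a probe were averaged, and a probe was tested when 3 or more of its 12 channel measurements were well above background. The log2 ratios were fitted with a term for each treatment and for dye on all 6 arrays together (3 residual degrees of freedom), followed by eBayes and Benjamini-Hochberg adjustment. The script was tested on simulated data. Channel signals come from the loess ratios and quantile-normalised mean intensities. The number of arrays limits the precision, and an exact test of 3 against 3 arrays cannot go under 0.1, so none was run.

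Symbols were given to 21157 probes from the RefSeq genes of rabbit assembly mOryCun1.1, used for names only, and 37 of the 40 member genes have one. The members, gene lists and tests were chosen with earlier results of these data known. The text names members with the 6 smallest p values and the 3 highest and lowest values per comparison, isoforms side by side, and from other lists called genes or the 2 smallest p values; further genes were named after their values were seen. Same-numbered arrays share their control by the labels, and their deviations from the group means correlated at 0.0174, 0.594 and 0.165. Alternatives were other log ratios, normalisation, offset, filters, flags, dye, slide, replicate block, spread prior, threshold, probe choice and each array left out. Some genes and a probe sequence are not reported here.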

Additional observations from a re-analysis of the deposited data

Results flagged for a closer look

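MPST, a sulfurtransferase that the search words brought in, was above 0 on all 3 vitrified arrays (0.04, 0.13 and 0.02) and below 0 on all 3 frozen arrays (-0.02, -0.22 and -0.06). Each vitrified array thus lay above each frozen array, which held for 2 of 34 members, 5.88%, and for 5.75% of all probes. That share is near the background, so it is not a result about the members. The fitted difference of MPST was 0.164 ± 0.13 (vitrified minus frozen), and limma's test of it gave an adjusted p of 0.817, so it did not pass.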

How the results depend on the processing

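The counts over all probes depended on the settings, whereas 1 member was called under 1 setting and none under the others. In vitrified embryos, where 6 probes were called, 0 were called with the scanner log ratio, with probes above background in all 12 channels or with slide as a covariate, and from 0 to 16 when single arrays were left out (0 without vitrified replicate 2, frozen replicate 2 or frozen replicate 3, and 16 without vitrified replicate 3). In frozen embryos, where 57 were called, the count was 1 with the scanner log ratio, 33 with median centring, 3 with an offset of 10, 8 without the dye term, 0 with slide and 187 at an adjusted p under 0.1. Leaving out single arrays gave 0 to 513, the highest without vitrified replicate 1 and 0, 1 or 3 without any other. Leaving out a replicate 2 array takes the dye term from the other treatment alone. With the replicate number as a block, 8 and 61 probes and 0 members were called, and no call of a member changed. The members called were 0 to 1 in frozen embryos when single arrays were left out: HKDC1 passed without vitrified replicate 1 (-0.73, adjusted p = 0.0494). The median over members moved to -0.12 with median centring in vitrified embryos. With single arrays left out it ran from -0.14 (without vitrified replicate 2) to -0.033 in vitrified embryos, from -0.10 to 0.015 (without frozen replicate 2) in frozen embryos, and from -0.020 to 0.14 (without vitrified replicate 1) for the difference. The cause of these shifts was not tested. Of 762 values of named members under an alternative, 748 moved by less than the spread between arrays. Some settings, such as the replicate block, the spread prior and the filters, change the test and leave the value of a gene as it was. That count is therefore no measure of stability. Of the 762 values 28 changed sign, and in 6 of these the reported value exceeded its SE. This way of judging them was chosen after the values were seen.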
